A study of Mus musculus with 15 samples.

Results

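This account describes the stromal cells of mouse mesenteric white adipose tissue (WAT), separated by whether they expressed the cytokine gene Il33. The members were the 3 libraries titled Mesenteric MSC IL33+ and the 3 titled Mesenteric MSC IL33-, 6 of the 15 libraries of the series, and they are called Il33+ and Il33- WAT-MSC here. All 6 came from mice heterozygous for the C57BL/6 IL33-citrine reporter, in which a citrine fluorescent protein is made under the control of Il33, and no treatment or age was given for either group. Both groups passed the same gate (lineage, CD45, Epcam, CD31 and CD24 negative, and PDGFRα, CD34, Sca1 and Podoplanin positive) and differed in the citrine signal alone. Cells were freed from the tissue with collagenase and sorted ex vivo without culture, and the 3 replicates of a group came from separate experiments. Total RNA was amplified before sequencing, and each gene was measured in RPKM (reads scaled to transcript length and to the mapped reads of the library), summed over the transcripts listed for its symbol. Levels are given in the order of replicates 1, 2 and 3.

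The stroma of adipose tissue holds several kinds of PDGFRα+ fibroblast-like cells. Interstitial progenitor cells, marked by Dpp4 and Pi16, lie in the collagen-rich septa and can give rise to committed preadipocytes, which sit closer to the fat lobules, surround themselves with basement membrane and turn on lipid genes. Other stromal cells with high F3 have been described as restraining adipogenesis. The mesothelium, a sheet of epithelial-like cells, covers mesenteric fat and can be carried along in such preparations. IL-33 is a nuclear cytokine of the IL-1 family that stromal and other barrier cells release when damaged, and it acts on type 2 innate lymphoid cells.

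The sort gene behaved as labelled. Il33 measured 38.7, 78.5 and 41.9 RPKM in the Il33+ libraries and 6.76, 4.31 and 4.49 RPKM in the Il33- libraries, and since the cells were sorted on it this value only checks the labels. Genes of the shared gate were present in every library, with Pdgfra at 89.8, 53.3 and 69.7 against 79.5, 122 and 112 RPKM and Cd34 at 225, 250.0 and 208 against 146, 139 and 147 RPKM. None of the 4 positive gate genes passed the test, and the adjusted p was 0.2 for Cd34, 0.448 for Pdgfra, 0.534 for Ly6a (which encodes Sca1) and 0.594 for Pdpn. Pecam1, which encodes CD31, measured 2.78, 1.73 and 2.51 against 2.49, 0.71 and 2.99 RPKM, and its mean in the WAT endothelial cells of the same series was 163 ± 30.6 RPKM (SD, n = 3). Epcam stayed at or below 0.23 RPKM in all 6 libraries, Cd24a measured 1.78, 9.63 and 8.72 against 3.21, 3.92 and 6.21 RPKM, and Ptprc (CD45) was not analysed here. The libraries held 43825859 to 57320368 alignments. Replicate 1 of the Il33- cells stood apart, with 7.03% of genes listed at 0 against 3.62 to 5.69% in the other 5 and a summed RPKM of 134069 against 163131 to 180720. Replicates 1 and 2 of each group were sequenced in the first lane and replicate 3 in the second, so that lane and group were balanced.

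Fold changes were fitted on log2(RPKM + 1), where the added 1 shrinks the fold of weakly expressed genes, with 3 libraries in each group throughout. Of 8448 genes tested, 0.923% were higher and 0.651% lower in Il33+ cells at an adjusted p under 0.05, and the median log2 fold change of all genes was -0.01. The libraries of the groups did not overlap for 8.84% of the genes in the higher direction and for 8.65% in the lower direction. The counts of list members below are to be read against these shares. All 133 genes past the threshold were without overlap, so for a called gene the lack of overlap adds no support. In these bulk samples, more RNA of a gene per cell and more cells that make it cannot be told apart.

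**Figure D1:**
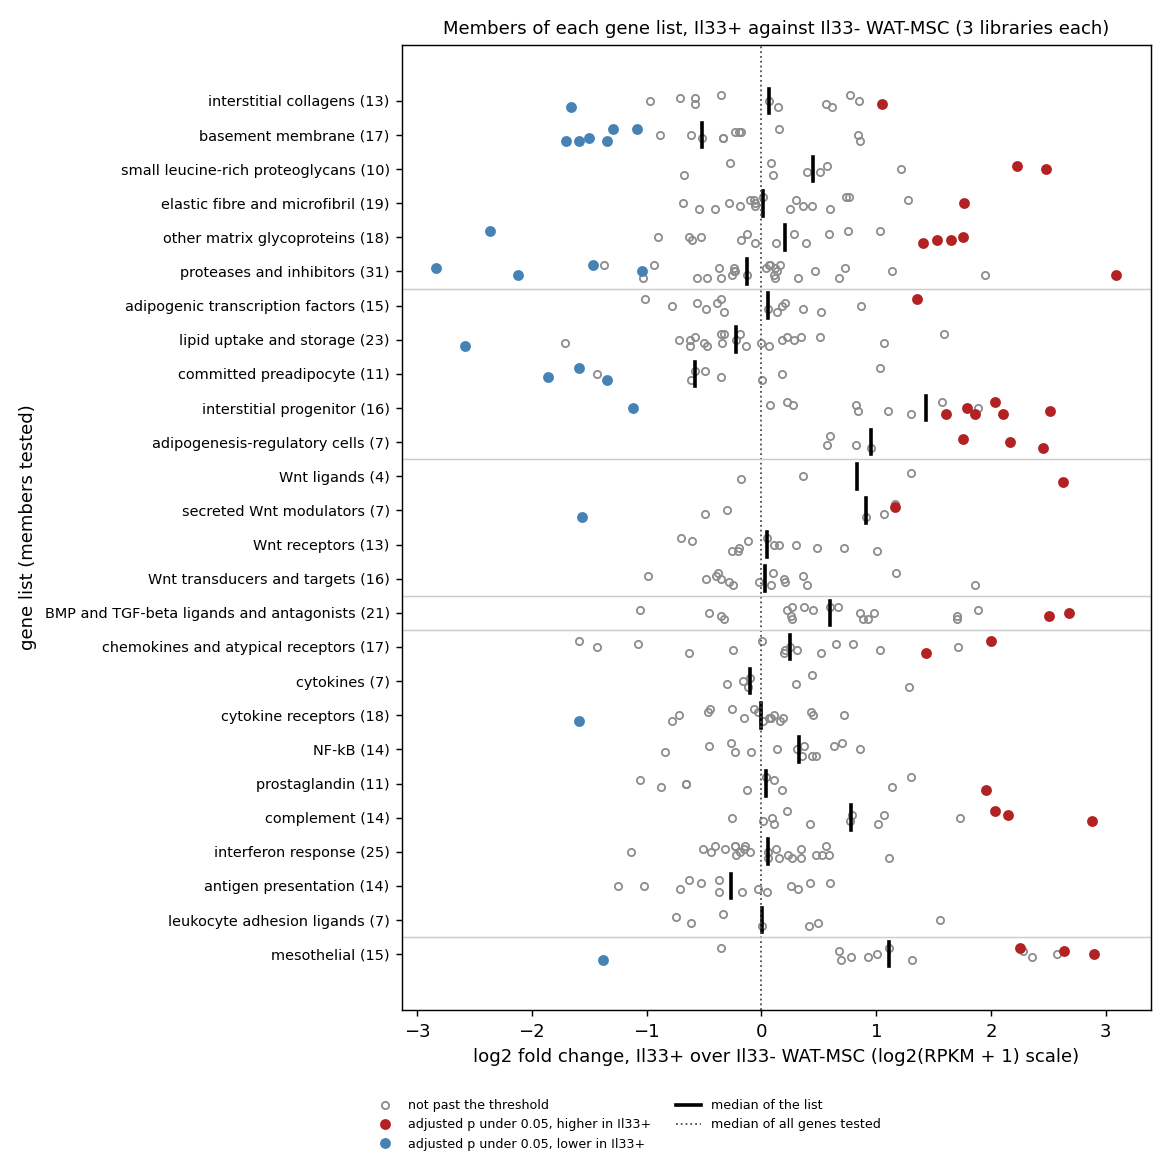
Each point is a gene of the list on the vertical axis, placed by its log2 fold change between Il33+ and Il33- WAT-MSC on the log2(RPKM + 1) scale, with filled points past an adjusted p of 0.05 and black bars at the list medians. Interstitial progenitor genes sat around a median of 1.44 and basement membrane genes around -0.52, while most inflammatory and Wnt receptor lists were centred near 0.

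Markers of stromal progenitor states gave calls in both directions. Of 19 interstitial progenitor genes, 16 passed the filter on low values, 6 were higher in Il33+ cells and 1 was lower. The median log2 fold change of the tested members was 1.44, and it was 1.30 between the libraries of the first lane and 1.26 between the replicates 3. In 12 of the 16 all Il33+ libraries lay above all Il33- libraries.

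Pi16, a peptidase inhibitor that marks this progenitor state in many tissues, measured 81.0, 60.8 and 85.7 RPKM in the Il33+ libraries and 10.1, 12.7 and 14.4 RPKM in the Il33- libraries. It had the largest fold change of the list (log2 fold change 2.52 ± 0.24 (SE), adjusted p = 0.00126), and the lowest Il33+ library was 4.21 times the highest Il33- library. Sema3c, a secreted semaphorin, measured 26.4, 47.2 and 26.2 against 5.88, 6.58 and 7.69 RPKM (2.10 ± 0.28, adjusted p = 0.00462). Cd55, which protects cells from complement by speeding the decay of its convertases, reached 109, 181 and 111 against 24.2, 35.1 and 34.8 RPKM (2.04 ± 0.27, adjusted p = 0.00436), with Il33+ replicate 2 the highest for both genes. Ly6c1, a surface antigen anchored by glycosylphosphatidylinositol, stood at 88.2, 169 and 138 against 27.8, 38.5 and 44.0 RPKM (1.79 ± 0.28, adjusted p = 0.00965). Efhd1, a calcium-binding protein of mitochondria, gave 39.9, 70.7 and 44.2 against 15.8, 16.5 and 8.40 RPKM (1.86 ± 0.31, adjusted p = 0.0137). Igfbp5, a secreted binding protein for insulin-like growth factors, was at 179, 171 and 195 against 43.2, 67.9 and 69.5 RPKM (1.61 ± 0.24, adjusted p = 0.00764). For each of these genes the groups were separated with no overlap.

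Dpp4, the surface peptidase by which these progenitors are usually sorted, measured 6.50, 8.03 and 9.31 RPKM in the Il33+ libraries and 2.62, 2.85 and 2.37 RPKM in the Il33- libraries. The groups did not overlap, but the gene missed the threshold (log2 fold change 1.30 ± 0.29 (SE), adjusted p = 0.0579; 95% interval 0.65 to 1.95). Igfbp6 and Tppp3, the most abundant members beside Igfbp5, measured 135, 165 and 182 against 79.3, 101 and 87.5 RPKM (adjusted p = 0.108) and 91.1, 128 and 135 against 76.0, 96.9 and 134 RPKM (adjusted p = 0.816). Pla1a, a phospholipase that acts on phosphatidylserine, was the exception. It measured 36.7, 35.3 and 26.6 against 61.6, 77.7 and 78.1 RPKM and was lower in Il33+ cells (-1.12 ± 0.23, adjusted p = 0.0346). Pi16, Cd55, Sema3c, Ly6c1 and Igfbp5 passed with any single library left out, whereas the call was lost for Efhd1 without Il33+ replicate 2 and Pla1a without Il33+ replicates 1, 2 or 3 or Il33- replicates 2 or 3.

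The list of cells that regulate adipogenesis moved in the same direction. All 7 members had a positive fold change with a median of 0.95, 5 did not overlap between the groups, and 3 were higher by the test. Fmo2, a flavin monooxygenase, measured 202, 198 and 235 RPKM in the Il33+ libraries and 37.9, 42.2 and 61.7 RPKM in the Il33- libraries (log2 fold change 2.17 ± 0.24 (SE), adjusted p = 0.00187). Meox2, a homeobox transcription factor, measured 18.2, 10.8 and 13.7 against 3.44, 0.94 and 1.39 RPKM (2.45 ± 0.37, adjusted p = 0.00797). Mgp, the matrix Gla protein that inhibits calcification, measured 259, 129.8 and 289.9 against 51.2, 57.2 and 83.6 RPKM (1.75 ± 0.32, adjusted p = 0.0197), with Il33+ replicate 2 the lowest of its group and still above every Il33- library. F3, the tissue factor by which these cells were first sorted, had non-overlapping levels of 58.4, 53.1 and 81.5 against 23.4, 33.8 and 42.1 RPKM without passing (adjusted p = 0.148). Gdf10, a ligand of the BMP family, overlapped between the groups at 126, 47.7 and 107 against 37.0, 56.6 and 86.9 RPKM (adjusted p = 0.625). Fmo2 passed with any single library left out, and the call was lost for Mgp without Il33+ replicates 1 or 3 or Il33- replicates 1 or 2 and Meox2 without Il33+ replicate 1.

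The committed preadipocyte list lay on the other side. Of 11 members tested, 3 were lower in Il33+ cells and none was higher, with a median log2 fold change of -0.58. The fold change was negative for 8 and positive for 3, and without overlap 5 lay lower and 1 higher. Icam1 was level (0.008, adjusted p = 0.998), and Cd36 was at 0.18 (adjusted p = 0.935). Without Il33- replicate 1 the median was -1.02. Ggt5, a gamma-glutamyltransferase, measured 4.01, 3.27 and 3.48 RPKM in the Il33+ libraries and 14.8, 17.8 and 14.3 RPKM in the Il33- libraries (log2 fold change -1.85 ± 0.26 (SE), adjusted p = 0.00613). The other 2 members called, Col4a1 and Col15a1, encode basement membrane collagens and are described with the matrix. Sparcl1, a matricellular glycoprotein, went against the list at 194, 131 and 167 against 63.4, 89.9 and 84.9 RPKM, with groups that did not overlap and adjusted p = 0.0634.

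**Figure D2:**
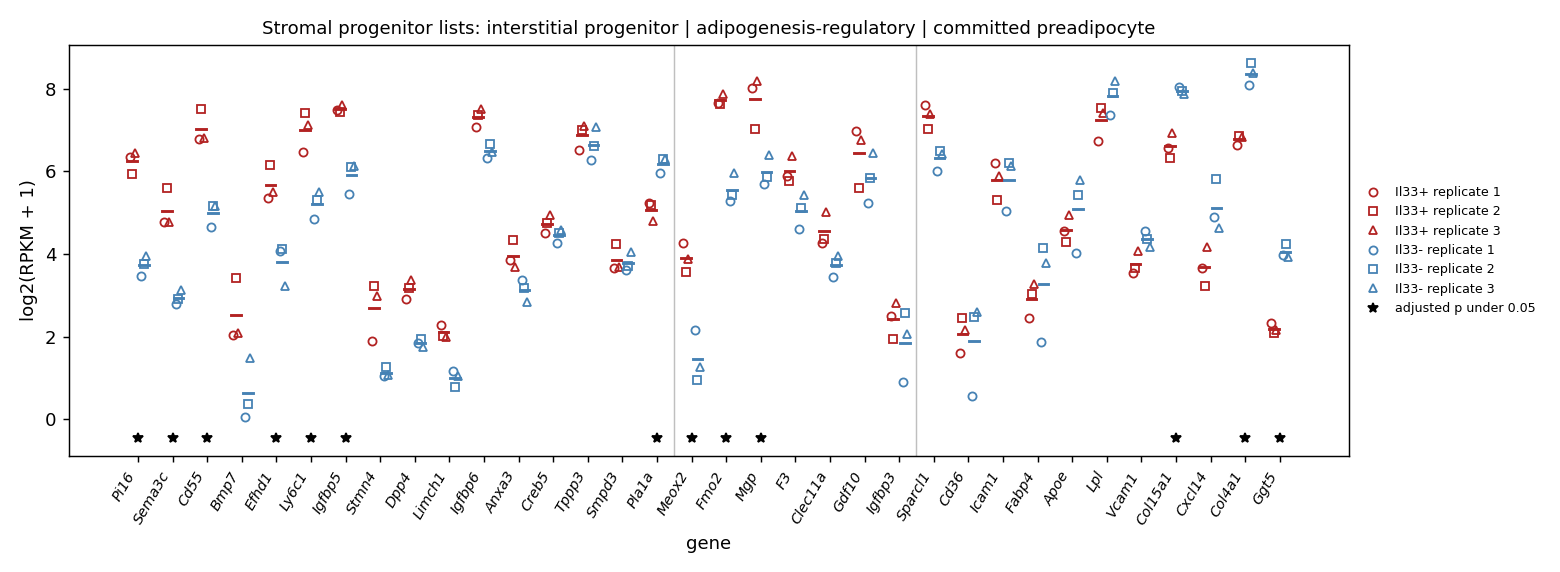
Levels of the tested members of the 3 stromal progenitor lists in each library, on a log2(RPKM + 1) axis, with red for Il33+ and blue for Il33- WAT-MSC, a symbol for each replicate number, horizontal bars for the means and stars for an adjusted p under 0.05. Within each list genes run from the largest to the smallest log2 fold change, from 2.52 for Pi16 to -1.12 for Pla1a in the first, and the second list has no member with a negative value.

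Il33+ and Il33- cells also differed in the kind of matrix they transcribed. Genes of the basement membrane, the laminin and type IV collagen sheet that surrounds adipocytes and vessels, were lower in Il33+ cells. Of 19 measured members 17 were tested, 6 were lower, none was higher, and the median log2 fold change was -0.52 (-0.48 between the libraries of the first lane and -0.49 between the replicates 3).

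Col4a1 and Col4a2 encode the α1 and α2 chains that assemble together into the main type IV collagen. Col4a1 measured 99.4, 115 and 114 RPKM in the Il33+ libraries and 274, 392 and 334 RPKM in the Il33- libraries (log2 fold change -1.59 ± 0.22 (SE), adjusted p = 0.00577). Col4a2 measured 99.8, 86.2 and 135 against 242, 344 and 323 RPKM (-1.50 ± 0.25, adjusted p = 0.0128), so that both chains differed by nearly the same amount. They are transcribed from a shared region on opposite strands, which is why their start regions are shown here. The windows of 300 bases around their start sites are RefSeq sequences of build GRCm38.p6, the patch release of mm10. The Col4a1 window is chr8:11312777-11313076 on the minus strand and the Col4a2 window is chr8:11312555-11312854 on the plus strand, each with 250 bases before the start site and 50 bases from it on. Capitals mark the 78 bases that both windows hold, read on opposite strands:
Col4a1: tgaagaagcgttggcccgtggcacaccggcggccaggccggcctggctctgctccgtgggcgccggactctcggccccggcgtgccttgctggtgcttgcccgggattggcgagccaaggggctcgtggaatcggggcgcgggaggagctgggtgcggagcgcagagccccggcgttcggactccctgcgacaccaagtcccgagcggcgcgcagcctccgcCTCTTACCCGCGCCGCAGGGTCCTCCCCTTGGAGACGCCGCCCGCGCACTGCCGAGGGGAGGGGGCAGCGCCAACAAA
Col4a2: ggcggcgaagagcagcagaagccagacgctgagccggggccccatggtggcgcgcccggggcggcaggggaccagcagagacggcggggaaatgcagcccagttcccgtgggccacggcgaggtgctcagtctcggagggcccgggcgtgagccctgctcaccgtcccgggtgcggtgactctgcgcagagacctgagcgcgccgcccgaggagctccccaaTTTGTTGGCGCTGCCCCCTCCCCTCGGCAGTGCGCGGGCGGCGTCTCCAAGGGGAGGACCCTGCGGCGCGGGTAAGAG
The start sites lie at 11312826 for Col4a1 and 11312805 for Col4a2, 22 bases apart counting both, and the RefSeq genes with all their start sites share 85 bases. The library kit and the counting were not stated to keep the strand, and reads in shared bases could have been given to either gene. Both windows hold the GC box GGGCGG on at least 1 strand, as did 35.7% of 32851 RefSeq promoter windows of this length, and both hold CCAAT on at least 1 strand, as did 37.4%. Neither holds TATAAA on either strand, which 13.6% of the windows did.

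Col15a1, the collagen that links basement membranes to interstitial fibres, measured 94.4, 79.6 and 121 against 264, 245 and 233 RPKM (-1.34 ± 0.23, adjusted p = 0.0145). Hspg2, which encodes the heparan sulfate proteoglycan perlecan, measured 62.6, 23.4 and 66.0 against 112, 181 and 172 RPKM (-1.70 ± 0.37, adjusted p = 0.0478), with Il33+ replicate 2 well below replicates 1 and 3. Nid2, which cross-links laminin to collagen, measured 20.3, 16.5 and 17.8 against 42.4, 51.2 and 44.3 RPKM (-1.29 ± 0.22, adjusted p = 0.0148). Lamb1, the laminin β1 chain, measured 66.9, 72.0 and 65.2 against 122, 171 and 149 RPKM (-1.09 ± 0.22, adjusted p = 0.0321). In each of the 6 called genes every Il33- library was above every Il33+ library. Other members did not pass, among them Nid1, the most abundant member, which measured 601, 835 and 709.6 against 703, 852 and 855 RPKM (adjusted p = 0.86) and Lamc1, the laminin γ1 chain, which measured 304, 298 and 294 against 358, 495 and 443 RPKM (adjusted p = 0.399). Lamb2, the β2 chain that can stand in for β1, had its higher values in Il33+ cells, at 41.9, 23.7 and 41.0 against 12.7, 20.7 and 24.2 RPKM (adjusted p = 0.284).

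Col4a1 passed with any single library left out. The call was lost for Col4a2 without Il33+ replicates 1 or 2 or Il33- replicates 2 or 3, Col15a1 without Il33+ replicates 1 or 2 or Il33- replicates 2 or 3, Nid2 without Il33+ replicates 1 or 3 or Il33- replicates 2 or 3, Lamb1 without Il33+ replicates 1, 2 or 3 or Il33- replicates 2 or 3 and Hspg2 with any single library left out. The count of lower members was 1 without Il33+ replicate 1, 2 without Il33+ replicate 2, 3 without Il33+ replicate 3, 5 without Il33- replicate 1 and 1 without Il33- replicate 2 or without replicate 3, while the list median stayed negative in each alternative.

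Interstitial collagens gave few calls. Among 13 interstitial collagen genes, 1 was higher, 1 was lower, and the median was 0.07, from -0.11 (without Il33+ replicate 3) to 0.21 (without Il33- replicate 3) with a library left out. Col1a1 and Col1a2, the chains of type I collagen, measured 823, 569.8 and 1578 against 587, 557 and 628 RPKM and 870.4, 804 and 1314 against 595, 658 and 736 RPKM, and Col3a1 measured 723, 722 and 1055 against 654, 767 and 952 RPKM, none of them past the threshold (adjusted p = 0.546, 0.459 and 0.958). Col14a1, a fibril-associated collagen, measured 136, 112 and 126 against 56.5, 52.5 and 71.0 RPKM (1.05 ± 0.22, adjusted p = 0.0389). Col5a3, a minor chain of type V collagen, measured 21.4, 11.7 and 22.8 against 51.9, 68.3 and 57.4 RPKM (-1.66 ± 0.28, adjusted p = 0.0137). The call was lost for Col14a1 with any single library left out and Col5a3 without Il33- replicate 2.

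Small leucine-rich proteoglycans, which bind collagen fibrils and growth factors, gave 2 higher members of 10 and a median of 0.45. Omd, osteomodulin, measured 9.99, 17.9 and 10.6 against 1.83, 1.12 and 1.29 RPKM (2.48 ± 0.33, adjusted p = 0.00436). Fmod, fibromodulin, measured 40.7, 30.3 and 69.5 against 7.76, 10.7 and 7.74 RPKM (2.23 ± 0.31, adjusted p = 0.00558). Decorin and lumican, abundant members, overlapped between the groups. Dcn measured 2439, 3296 and 2624 against 2035, 2908 and 2895 RPKM (adjusted p = 0.936) and Lum 372, 527 and 512 against 319.7, 328 and 418 RPKM (adjusted p = 0.605). Biglycan lay higher in every Il33+ library but missed the threshold, with Bgn at 1669, 2084 and 2675 against 788, 899.8 and 1052 RPKM (adjusted p = 0.0614). Omd and Fmod passed with any single library left out.

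Of the elastic fibre and microfibril list 1 of 19 members was higher, with a median of 0.01, from -0.19 (without Il33- replicate 1) to 0.26 (without Il33+ replicate 1) with a library left out. It was Fbln1, fibulin 1, at 237, 97.2 and 231 against 36.5, 56.3 and 64.0 RPKM (1.76 ± 0.35, adjusted p = 0.0324), with Il33+ replicate 2 below the other 2 of its group. Fbn1, the fibrillin of microfibrils, measured 295, 268 and 251 against 196, 195 and 205 RPKM (adjusted p = 0.448), and Mfap4 144, 163 and 292 against 65.7, 78.5 and 92.2 RPKM (adjusted p = 0.0552).

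Among 18 other matrix glycoprotein genes, 4 were higher and 1 was lower. Both hyaluronan synthases of the list were higher. Has1 measured 98.2, 93.7 and 79.2 against 26.3, 48.7 and 28.8 RPKM (1.41 ± 0.26, adjusted p = 0.0237) and Has2 measured 16.9, 28.9 and 16.04 against 5.23, 6.95 and 4.96 RPKM (1.65 ± 0.29, adjusted p = 0.0183). Cilp, cartilage intermediate layer protein, measured 73.4, 79.8 and 79.0 against 25.4, 24.3 and 29.1 RPKM (1.53 ± 0.21, adjusted p = 0.00462), and Mgp is given above. Vtn, the adhesive plasma and matrix protein vitronectin, was lower at 3.86, 2.59 and 2.59 against 14.5, 24.4 and 20.7 RPKM (-2.36 ± 0.29, adjusted p = 0.0037). Fn1 and Sparc, at 478, 440.4 and 456 against 324, 431 and 526 RPKM and 2987, 2526 and 4684 against 2471, 2599 and 3054 RPKM, overlapped between the groups. Cilp and Vtn passed with any single library left out, and the call was lost for Fbln1 without Il33+ replicates 1 or 3 or Il33- replicates 1, 2 or 3, Has1 without Il33+ replicates 1, 2 or 3 or Il33- replicates 1 or 3 and Has2 without Il33+ replicates 1 or 2 or Il33- replicate 3.

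The list of matrix proteases, their relatives and their inhibitors split in both directions, with 1 higher and 4 lower of 31 tested. Mmp3, the metalloproteinase stromelysin 1, measured 24.3, 15.04 and 23.9 RPKM in the Il33+ libraries and 0.49, 3.16 and 1.63 RPKM in the Il33- libraries (log2 fold change 3.09 ± 0.39 (SE), adjusted p = 0.00382). Plau, the urokinase that activates plasminogen, was lower in Il33+ cells at 19.3, 10.3 and 12.4 against 57.1, 80.5 and 52.2 RPKM (-2.12 ± 0.28, adjusted p = 0.00436), and so was Serpine2, a serpin that inhibits urokinase and thrombin, at 7.66, 15.4 and 9.40 against 26.7, 29.7 and 36.1 RPKM (-1.47 ± 0.28, adjusted p = 0.0292). Adam23, an adhesion protein of the disintegrin family with no active protease domain, measured 0.20, 0.63 and 0.30 against 8.51, 8.67 and 8.97 RPKM (-2.83 ± 0.32, adjusted p = 0.00199) and stayed below 1 RPKM in every Il33+ library. Adam19, an active member of that family, measured 32.4, 30.3 and 32.0 against 59.8, 59.8 and 79.8 RPKM (-1.04 ± 0.22, adjusted p = 0.0408). Timp2 and Mmp2, the abundant inhibitor and protease, did not pass, at 791, 805 and 746 against 492, 613 and 593 RPKM (adjusted p = 0.471) and 169, 167 and 183 against 155, 266 and 264 RPKM (adjusted p = 0.66). Mmp3, Plau and Adam23 passed with any single library left out, and the call was lost for Serpine2 without Il33+ replicates 1 or 3 or Il33- replicates 2 or 3 and Adam19 without Il33+ replicates 1, 2 or 3 or Il33- replicates 2 or 3.

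**Figure D3:**
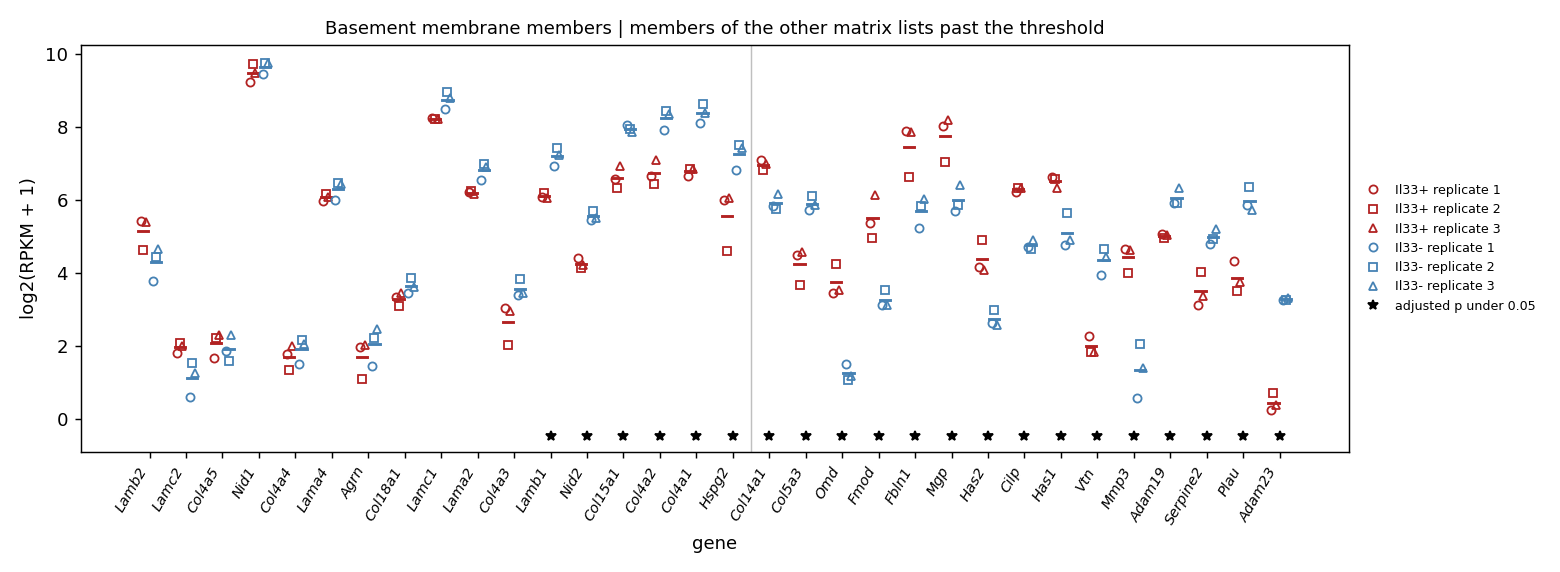
Levels in each library of the tested basement membrane members (left of the grey line) and of the members of the other matrix lists that passed the threshold (right), on a log2(RPKM + 1) axis with bars for the means. The 6 starred basement membrane genes lie lower in red (Il33+) than in blue (Il33-), with fold changes down to -1.70 for Hspg2, while the starred genes on the right lie on both sides.

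Adipogenic transcription factors gave 1 call. Of 15 tested, 1 was higher, none was lower, and the median was 0.06, from -0.15 (without Il33- replicate 1) to 0.12 (without Il33- replicate 3) with a library left out. Zfp423, a zinc finger factor of preadipocyte commitment, measured 11.02, 12.4 and 14.3 RPKM in the Il33+ libraries and 4.86, 2.93 and 5.45 RPKM in the Il33- libraries (log2 fold change 1.35 ± 0.29 (SE), adjusted p = 0.0478), a call that was lost with any single library left out. Ebf2, another early factor, measured 38.9, 64.8 and 36.2 against 52.3, 65.1 and 61.3 RPKM (adjusted p = 0.637; 95% interval -0.96 to 0.18). Cebpd, induced early in adipogenesis, measured 52.7, 52.6 and 45.1 against 53.0, 80.0 and 82.3 RPKM (adjusted p = 0.471). Pparg, the master regulator of fat cell formation, was under the filter, with 0.25, 0.04 and 0.63 RPKM in the Il33+ libraries and 0.58, 3.40 and 3.13 RPKM in the Il33- libraries. Its levels were near 0 in Il33- replicate 1 as in the Il33+ libraries, and above 3 RPKM in Il33- replicates 2 and 3.

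Plin2, which coats lipid droplets in many cell types, was the only member called among 23 tested genes of lipid uptake and storage. It measured 8.13, 6.37 and 9.02 RPKM in the Il33+ libraries and 24.0, 72.1 and 79.0 RPKM in the Il33- libraries (log2 fold change -2.59 ± 0.40 (SE), adjusted p = 0.00861). All Il33- libraries lay above the Il33+ libraries, with Il33- replicate 1 well below replicates 2 and 3. The median of the list was -0.22, and with a library left out it ran from -0.47 (without Il33- replicate 1) to -0.08 (without Il33- replicate 2). Lpl, the lipoprotein lipase that frees fatty acids for uptake, measured 106, 185 and 171 against 165, 236 and 290.2 RPKM (adjusted p = 0.478; 95% interval -1.21 to 0.05). The lipogenic genes Scd2 and Acly measured 44.0, 25.9 and 33.0 against 37.2, 18.2 and 34.7 RPKM (adjusted p = 0.86) and 22.4, 37.1 and 20.7 against 22.4, 27.9 and 23.8 RPKM (adjusted p = 0.958). Of adipocyte markers only Lipe and Car3 were measured. Car3 stood at 0.69, 1.09 and 0.46 against 0.10, 14.8 and 11.2 RPKM, high in Il33- replicates 2 and 3 alone, and Lipe at 0.38, 0.10 and 0.67 against 0.57, 2.09 and 2.35 RPKM. The part of adipocyte RNA in the Plin2 difference was not tested. Plin2 passed with any single library left out.

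Wnt signalling restrains adipogenesis in progenitors, and its secreted factors gave calls in both directions. Only 4 of 19 Wnt ligands were tested, and 1 was higher. Wnt2b measured 25.4, 26.5 and 28.5 RPKM in the Il33+ libraries and 1.75, 4.78 and 4.76 RPKM in the Il33- libraries (log2 fold change 2.62 ± 0.32 (SE), adjusted p = 0.00349), with the lowest Il33+ library 5.32 times the highest Il33- library. Wnt5a, a ligand known for signalling without β-catenin, measured 40.1, 26.2 and 31.2 against 27.2, 24.8 and 22.2 RPKM (adjusted p = 0.633; 95% interval -0.16 to 0.89). Wnt9a lay higher in the Il33+ libraries without passing, at 3.29, 1.57 and 5.59 against 0.24, 0.97 and 1.00 RPKM (adjusted p = 0.233).

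Among 7 tested modulators 1 was higher and 1 was lower. Rspo3, an R-spondin that amplifies Wnt signals by sparing their receptors, was lower in Il33+ cells at 8.16, 7.59 and 9.14 against 21.5, 23.5 and 36.1 RPKM (-1.56 ± 0.27, adjusted p = 0.0148). Dkk3, a divergent member of the Dickkopf family, was higher at 29.0, 31.8 and 39.2 against 13.7, 13.1 and 16.02 RPKM (1.16 ± 0.23, adjusted p = 0.033). Rspo1, a relative of Rspo3, had the opposite direction at 23.1, 53.0 and 48.0 against 17.9, 17.1 and 15.8 RPKM, with groups that did not overlap and adjusted p = 0.108. Sfrp1, a secreted antagonist and the most abundant of the list, measured 264, 218 and 338 against 120.2, 131 and 185 RPKM (adjusted p = 0.138). Wnt2b passed with any single library left out, and the call was lost for Rspo3 without Il33+ replicate 1 or Il33- replicates 2 or 3 and Dkk3 with any single library left out.

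No member of 13 tested Wnt receptors or of 16 tested transducers and targets passed, and the list medians were 0.05 and 0.03. With a library left out they ran from -0.05 (without Il33- replicate 1) to 0.15 (without Il33+ replicate 2) and from -0.15 (without Il33- replicate 1) to 0.11 (without Il33+ replicate 2). Fzd1 came closest among the named receptors at 17.2, 14.7 and 16.02 against 5.72, 8.66 and 8.33 RPKM (adjusted p = 0.105). Ctnnb1, which encodes β-catenin, measured 35.5, 22.3 and 34.4 against 25.8, 30.3 and 36.3 RPKM (adjusted p = 0.991; 95% interval -0.58 to 0.54), and Axin2, a usual target of the pathway, measured 3.88, 4.33 and 1.68 against 4.74, 1.89 and 2.43 RPKM (adjusted p = 0.96).

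Ligands and antagonists of the BMP and TGF-β families leaned towards Il33+ cells, with 2 of 21 tested members higher, none lower and a median of 0.60. Chrdl1, chordin-like 1, which binds and blocks BMP ligands, measured 11.9, 9.28 and 13.9 RPKM in the Il33+ libraries and 1.17, 0.87 and 0.84 RPKM in the Il33- libraries (log2 fold change 2.68 ± 0.31 (SE), adjusted p = 0.00212). Fstl1, the most abundant member, measured 432, 497 and 441 against 313, 332 and 421 RPKM (adjusted p = 0.602). Chrdl1 passed with any single library left out.

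In the IGF system 1 of 9 tested members was higher, Igfbp5, with a list median of 0.53. With a library left out this median ran from 0.20 (without Il33- replicate 1) to 0.68 (without Il33- replicate 3), and it was 0.31 without Il33+ replicate 3. Igfbp7 and Igfbp4, the abundant binding proteins, measured 638, 750.4 and 952 against 509, 723 and 738 RPKM (adjusted p = 0.793) and 215, 166 and 369.8 against 178, 193 and 225 RPKM (adjusted p = 0.805). Among 12 genes of retinoid synthesis and response 1 was lower. It was Aldh1a2, which makes retinoic acid from retinal and is also a marker of mesothelium, at 31.3, 27.8 and 50.8 against 78.9, 103 and 102 RPKM (-1.38 ± 0.26, adjusted p = 0.026). Its call was lost without Il33+ replicates 1 or 2 or Il33- replicates 2 or 3. Aldh1a1, which catalyses the same step, measured 26.8, 22.5 and 28.7 against 10.3, 23.4 and 26.2 RPKM (adjusted p = 0.662).

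Inflammatory genes gave few calls outside complement and chemokine scavengers. The study asked how WAT-MSC support type 2 immunity, in assays of total WAT-MSC not separated by citrine. Chemokines, cytokines and adhesion ligands are therefore given first. Ccl11, the eosinophil chemoattractant eotaxin, measured 297, 570.1 and 431 RPKM in the Il33+ libraries and 652, 1212 and 861 RPKM in the Il33- libraries. All Il33- libraries lay above the Il33+ libraries, but the difference missed the threshold (log2 fold change -1.07 ± 0.31 (SE), adjusted p = 0.164; 95% interval -1.76 to -0.38). Cxcl1 and Ccl2, which draw neutrophils and monocytes, measured 562, 1209.7 and 826 against 617, 722 and 750.2 RPKM (adjusted p = 0.823) and 127, 369.7 and 139 against 74.3, 257 and 116 RPKM (adjusted p = 0.744). Of 17 tested members of this list 2 were higher and none was lower, and both were atypical receptors, which bind chemokines without the usual signalling.

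Ackr1, which binds many inflammatory chemokines, measured 32.2, 44.0 and 50.4 RPKM in the Il33+ libraries and 5.09, 11.1 and 15.3 RPKM in the Il33- libraries (log2 fold change 2.00 ± 0.35 (SE), adjusted p = 0.0166). Ackr3, which takes up Cxcl12, measured 172, 249 and 197 against 71.0, 76.7 and 77.2 RPKM (1.43 ± 0.22, adjusted p = 0.00861). Ackr3 passed with any single library left out, and the call was lost for Ackr1 without Il33+ replicates 2 or 3. Icam1, the adhesion ligand of the integrin LFA-1, measured 72.9, 38.6 and 58.4 against 32.2, 72.2 and 69.4 RPKM (adjusted p = 0.998; 95% interval -0.73 to 0.75), and Vcam1 measured 10.6, 11.6 and 15.9 against 22.7, 19.6 and 17.0 RPKM (adjusted p = 0.38). None of 7 tested adhesion ligands passed.

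No cytokine of 7 tested passed. Il6 measured 94.8, 159.7 and 133 against 27.8, 94.3 and 50.8 RPKM, with every Il33+ library above every Il33- library by a narrow margin (adjusted p = 0.168), and Csf1, the growth factor of macrophages, measured 72.7, 82.2 and 67.7 against 46.2, 112 and 109 RPKM (adjusted p = 0.903). Of 18 cytokine receptors 1 was lower. Lifr, the receptor of leukaemia inhibitory factor, measured 10.7, 10.1 and 9.89 RPKM in the Il33+ libraries and 30.3, 37.2 and 31.3 RPKM in the Il33- libraries (log2 fold change -1.59 ± 0.23 (SE), adjusted p = 0.00614), whereas its partner Il6st measured 133, 96.4 and 119 against 68.4, 94.2 and 92.3 RPKM (adjusted p = 0.505). Lifr passed with any single library left out. The Il33 receptor gene Il1rl1 was not analysed here.

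Complement leaned towards Il33+ cells, with 3 of 14 tested members higher, none lower, 8 without overlap and a median of 0.78 (0.71 between the libraries of the first lane and 0.66 between the replicates 3). Without Il33- replicate 1 the median was 0.54. C7, a component of the terminal attack complex, measured 359.9, 143 and 291 RPKM in the Il33+ libraries and 30.1, 29.3 and 39.5 RPKM in the Il33- libraries (log2 fold change 2.88 ± 0.32 (SE), adjusted p = 0.00194). Cd55, given above, is a regulator of the cascade and stands in this list too. C3 and Serping1, the most abundant members, measured 1105, 931 and 1199 against 670.4, 1084 and 1065 RPKM (adjusted p = 0.831) and 1235, 1306 and 1368 against 568, 874 and 886 RPKM (adjusted p = 0.258). C7 and Cd55 passed with any single library left out.

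In the prostaglandin list 1 of 11 members was higher. Ptgs1, the constitutive cyclooxygenase 1, measured 16.5, 12.8 and 15.98 RPKM in the Il33+ libraries and 1.54, 4.83 and 3.69 RPKM in the Il33- libraries (log2 fold change 1.96 ± 0.34 (SE), adjusted p = 0.0166), a call that was lost without Il33+ replicates 1 or 3. Ptgs2, the inducible cyclooxygenase 2, measured 155, 205 and 168 against 59.7, 130.1 and 63.4 RPKM (adjusted p = 0.108). No member passed among 14 genes of the NF-κB pathway, 25 interferon response genes or 14 antigen presentation genes, with medians of 0.33, 0.06 and -0.27. These medians moved with single libraries. With a library left out the NF-κB median ran from 0.04 (without Il33- replicate 1) to 0.55 (without Il33- replicate 2). The interferon median ran from -0.17 (without Il33- replicate 1) to 0.27 (without Il33- replicate 3) and the antigen presentation median from -0.57 (without Il33- replicate 1) to 0.08 (without Il33- replicate 3), so that both changed sign. No member passed among 21 immediate early and heat shock genes, which respond to tissue dissociation. The fold change was negative for 16 and positive for 5. Without overlap, 5 lay lower in Il33+ cells and none higher, beside 8.65 and 8.84% of all genes. The median of this list was -0.24, from -0.44 (without Il33- replicate 1) to -0.10 (without Il33- replicate 3) with a library left out. Egr1 measured 2812, 1402 and 2751 against 2942, 3532 and 3842 RPKM, without overlap (adjusted p = 0.532).

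**Figure D4:**
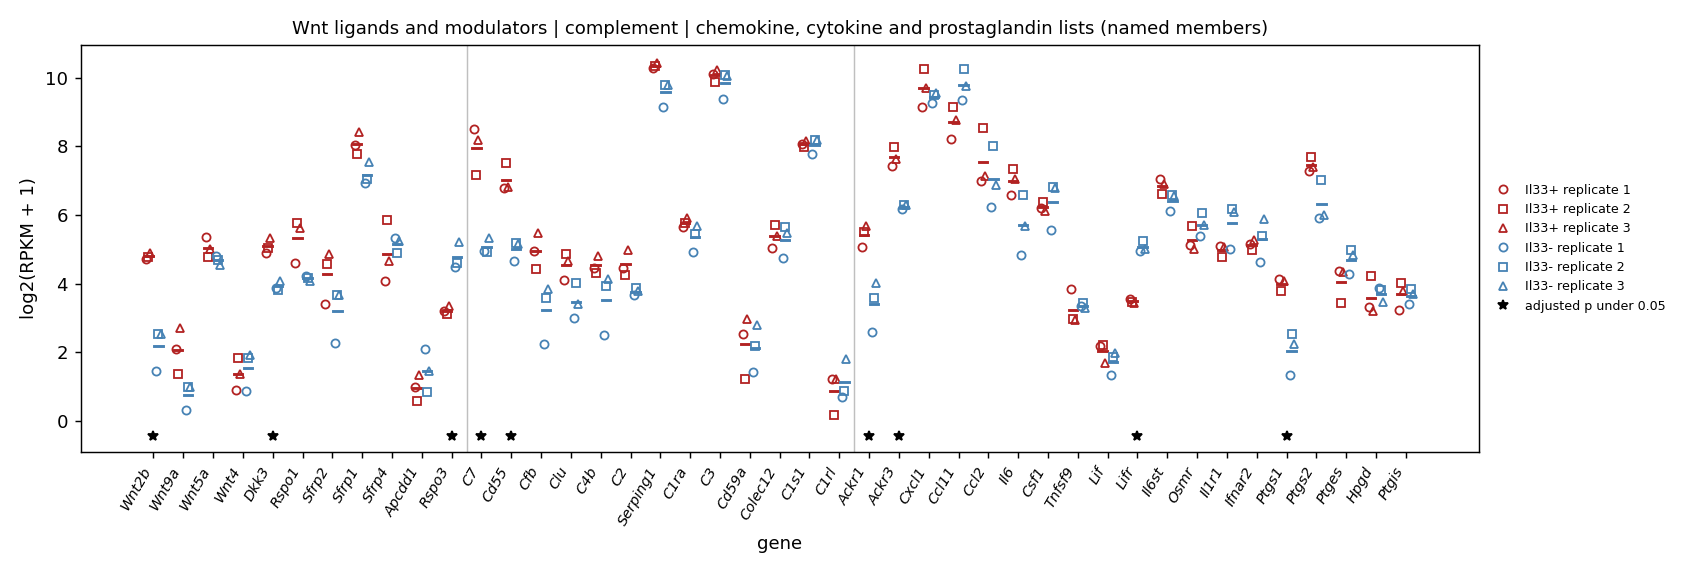
Levels in each library of the tested Wnt ligands and modulators (left), tested complement genes (middle) and the named chemokine, cytokine and prostaglandin genes (right), on a log2(RPKM + 1) axis with bars for the means and stars for an adjusted p under 0.05. Wnt2b, C7, Cd55, Ackr1, Ackr3 and Ptgs1 lie higher in red (Il33+), Rspo3 and Lifr lie higher in blue (Il33-), and Ccl11 lies higher in blue without a star.

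Mesothelial genes gave calls in both directions and were uneven among libraries. Of 17 measured members 15 were tested, 3 were higher and 1 was lower, and the median was 1.11. The fold change was positive for 13 of the tested members and negative for 2, Aldh1a2 and Wt1. Over the members with at least 1 RPKM in all 6 libraries the median was -0.35. That filter keeps none of the 12 members below 0.05 RPKM in Il33- replicate 1, nor Podxl, so this median covers few members. Upk1b, a tetraspanin of the uroplakin family, measured 5.35, 25.4 and 17.9 RPKM in the Il33+ libraries and 0, 3.48 and 0.70 RPKM in the Il33- libraries (log2 fold change 2.90 ± 0.60 (SE), adjusted p = 0.0394). Gpm6a, a membrane glycoprotein, measured 3.92, 13.8 and 11.3 against 0.01, 1.15 and 0.72 RPKM (2.64 ± 0.47, adjusted p = 0.0174). Podxl, the sialomucin podocalyxin, measured 4.21, 10.5 and 17.4 against 0.67, 1.90 and 1.09 RPKM (2.25 ± 0.46, adjusted p = 0.0337). Podocalyxin is also among the endothelial markers that the study lists. For Upk1b, Gpm6a and Podxl the groups did not overlap and Il33+ replicate 1 was the lowest of its group. Of the defining markers, Upk3b measured 7.13, 13.2 and 20.8 against 0, 3.44 and 3.20 RPKM (adjusted p = 0.0732), Lrrn4 5.06, 15.7 and 30.1 against 0.02, 6.30 and 2.68 RPKM (adjusted p = 0.188) and Msln, mesothelin, 1.01, 4.62 and 9.04 against 0.01, 1.17 and 2.39 RPKM (adjusted p = 0.436). Bnc1 was under the filter at 0.83, 2.94 and 2.00 against 0, 0.41 and 0.06 RPKM. Wt1, the transcription factor of mesothelium, did not follow them. It measured 9.80, 15.1 and 10.6 against 23.6, 13.5 and 10.7 RPKM and its highest value was in an Il33- library (log2 fold change -0.35 ± 0.32 (SE), adjusted p = 0.74; 95% interval -1.05 to 0.35). Aldh1a2, the most abundant member, was lower.

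In Il33- replicate 1, 8 of the 17 members were listed at 0 and 12 were below 0.05 RPKM, whereas none was at 0 in any other of the 6 libraries. The calls for Upk1b and Gpm6a were lost without this library, and the calls were lost for Upk1b without Il33+ replicates 2 or 3 or Il33- replicates 1 or 3, Gpm6a without Il33+ replicates 2 or 3 or Il33- replicate 1 and Podxl without Il33+ replicates 2 or 3 or Il33- replicates 1, 2 or 3. The summed level of the list was 84.0 to 225 RPKM in Il33+ and 104 to 154 RPKM in Il33- libraries. Aldh1a2 made up most of this sum in every Il33- library but the smaller part of it in every Il33+ library. In the WAT endothelial cells the list summed to 120.3 to 399.8 RPKM. Whether mesothelial RNA took part in any difference above was not tested.

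**Figure D5:**
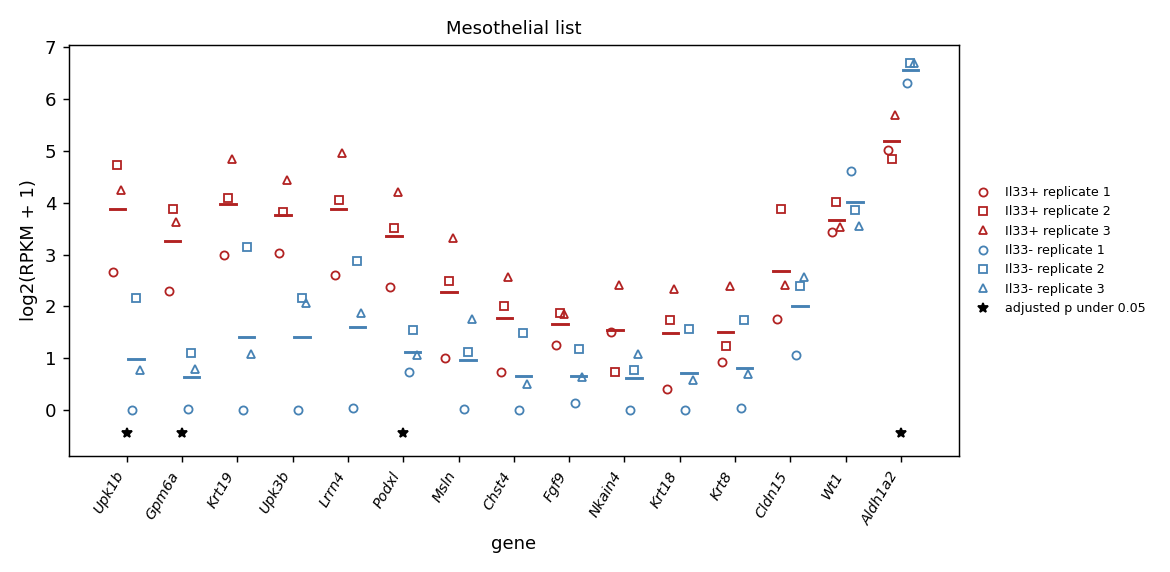
Levels of the tested mesothelial genes in each library on a log2(RPKM + 1) axis, with bars for the means and stars for an adjusted p under 0.05. Il33- replicate 1 (blue circles) lies at or near 0 for most genes but has the highest Wt1 level at 23.6 RPKM, and Aldh1a2 runs opposite to Upk1b and Gpm6a.

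Markers of other cell types were mostly low, apart from Scgb1a1 and globin genes, and gave 1 call. None of 9 tested endothelial genes passed, with summed levels of 25.6 to 48.3 RPKM in Il33+ and 15.9 to 31.6 RPKM in Il33- libraries against 804 to 949.6 RPKM in WAT endothelial cells, and Cdh5 at 2.02, 5.82 and 4.17 against 0.14, 1.16 and 4.43 RPKM. The endothelial median was 0.39 (0.86 between the libraries of the first lane and -0.18 between the replicates 3). Lymphatic endothelial genes summed to 1.64 to 8.71 against 4.33 to 21.9 RPKM, with Prox1 at 0.68, 0.22 and 2.16 against 0.58, 2.18 and 1.40 RPKM and no call. All 3 tested lymphatic members had a negative fold change, with a median of -0.63. Leukocyte genes summed to 10.9 to 17.9 against 21.0 to 47.2 RPKM, higher in every Il33- library, with none of 4 tested past the threshold. Their part in the differences above was not tested.

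Abcc9, the sulfonylurea receptor subunit of potassium channels, was the 1 pericyte and smooth muscle gene called of 6 tested. It measured 19.1, 17.6 and 20.7 RPKM in the Il33+ libraries and 1.29, 1.70 and 1.77 RPKM in the Il33- libraries (log2 fold change 2.96 ± 0.27 (SE), adjusted p = 0.00126) and passed with any single library left out. The list, Abcc9 included, summed to 34.6 to 41.4 RPKM in Il33+ and 6.93 to 19.0 RPKM in Il33- libraries. Of the 6 tested members 5 had a positive fold change and 1 a negative one. Rgs5, a defining pericyte marker, measured 8.29, 16.4 and 11.1 against 1.80, 4.55 and 6.83 RPKM, without overlap (adjusted p = 0.174). Myh11, a defining marker of smooth muscle, stayed below 1 RPKM in all 6 libraries at 0.81, 0.35 and 0.36 against 0.05, 0.61 and 0.59 RPKM. Of the lung epithelial list Scgb1a1, a secretoglobin of airway cells, was the only gene tested, at 71.2, 78.3 and 134 against 56.1, 62.6 and 96.2 RPKM (adjusted p = 0.69). The whole list summed to 162300 to 209800 RPKM in the lung epithelial libraries, sequenced in the same lanes, and to 62.2 to 106.6 RPKM in WAT endothelial cells. The source of Scgb1a1 in WAT was not tested. Of 6 Schwann cell genes only Mbp was measured, at 1.18, 1.09 and 0.49 against 0.05, 0.35 and 0.11 RPKM. Red blood cell genes gave no call of 6, with Hba-a1 at 1.56, 16.3 and 19.1 against 0.06, 17.0 and 12.6 RPKM and the globin genes near 0 in Il33- replicate 1.

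Outside these programs, the 15 largest calls in each direction among genes whose libraries did not overlap held several regulators. Shisa3, known to restrain Wnt and FGF receptors from within the endoplasmic reticulum, measured 25.6, 9.47 and 16.2 RPKM in the Il33+ libraries and 0.06, 0.01 and 0.14 RPKM in the Il33- libraries (log2 fold change 3.98 ± 0.38 (SE), adjusted p = 0.00126), the largest fold change of the comparison. Stc2, the secreted glycoprotein stanniocalcin 2, measured 22.1, 12.2 and 33.4 against 0.34, 0.67 and 1.29 RPKM (3.67 ± 0.39, adjusted p = 0.00152). Cd200, a ligand of an inhibitory receptor on myeloid cells, measured 19.0, 21.1 and 17.8 against 0.09, 2.71 and 1.80 RPKM (3.17 ± 0.42, adjusted p = 0.00436). Foxc1, a forkhead factor of mesenchymal development, measured 12.4, 15.7 and 11.2 against 0.34, 2.37 and 0.70 RPKM (2.83 ± 0.38, adjusted p = 0.00462). Art4 and Sbsn, an ADP-ribosyltransferase family member and the secreted protein suprabasin, measured 7.28, 6.16 and 8.33 against 0, 0.50 and 0.60 RPKM (2.62 ± 0.35, adjusted p = 0.00436) and 13.1, 12.7 and 6.20 against 0.02, 0.68 and 2.32 RPKM (2.64 ± 0.46, adjusted p = 0.0166). For Shisa3 the Il33- libraries were all below 0.15 RPKM.

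In the lower direction the genes included signalling and adhesion molecules. Pcdh1, a protocadherin, measured 0.96, 0.54 and 1.52 against 9.52, 15.6 and 9.47 RPKM (-2.64 ± 0.34, adjusted p = 0.00436). Fam150b, which encodes a ligand of the receptor tyrosine kinase ALK, measured 1.81, 0.50 and 1.30 against 7.05, 13.6 and 16.8 RPKM (-2.58 ± 0.39, adjusted p = 0.00797). Agt, angiotensinogen, measured 1.01, 0.39 and 2.61 against 6.28, 14.8 and 14.2 RPKM (-2.48 ± 0.43, adjusted p = 0.0166). Psat1, an enzyme of serine synthesis, measured 14.3, 5.69 and 13.5 against 45.1, 43.8 and 53.1 RPKM (-2.08 ± 0.32, adjusted p = 0.00861). P2ry1, a receptor for ADP, measured 3.76, 3.27 and 6.70 against 15.9, 22.6 and 22.3 RPKM (-1.97 ± 0.30, adjusted p = 0.00898). Plxnd1, a semaphorin receptor, measured 1.58, 0.53 and 1.69 against 5.57, 10.6 and 11.6 RPKM (adjusted p = 0.0166), and Bmper, a BMP-binding protein, 4.67, 3.31 and 5.40 against 11.3, 27.1 and 31.0 RPKM (adjusted p = 0.0185).

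Ret, the receptor tyrosine kinase of the GDNF family, measured 1.36, 0.55 and 1.71 against 7.34, 6.87 and 6.94 RPKM (adjusted p = 0.0169), and its levels varied little among the Il33- libraries. Elfn1, Kcna2 and Adap2 completed the list at 0.37, 0.30 and 0.60 against 8.51, 3.22 and 4.68 RPKM, 0.13, 0.19 and 0.41 against 5.02, 2.05 and 6.30 RPKM and 0.62, 1.45 and 1.93 against 4.66, 7.86 and 13.7 RPKM (adjusted p = 0.0209, 0.0321 and 0.0372). Shisa3, Stc2, Cd200, Foxc1, Art4, Pcdh1, Fam150b and Psat1 passed with any single library left out. The call was lost for Sbsn without Il33+ replicates 1 or 2 or Il33- replicate 2, Agt without Il33+ replicates 1 or 2 or Il33- replicates 2 or 3, P2ry1 without Il33- replicate 2, Plxnd1 without Il33+ replicate 1 or Il33- replicates 2 or 3, Bmper without Il33+ replicates 1 or 2 or Il33- replicates 2 or 3, Ret without Il33+ replicate 1 or Il33- replicates 2 or 3, Elfn1 without Il33+ replicates 1, 2 or 3 or Il33- replicates 1 or 3, Kcna2 without Il33+ replicates 1, 2 or 3 or Il33- replicates 1 or 3 and Adap2 without Il33+ replicates 1, 2 or 3 or Il33- replicates 2 or 3.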

How the data were processed

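RNA of flow-sorted cells was amplified (Ovation RNA-seq System V2), sequenced on an Illumina Hiseq4000 and aligned with TopHat2 in Partek, and the submitters' processing notes name mm10. The authors deposited RPKM values with 2 decimals for 12698 transcripts, which were summed here over 10222 gene symbols. Because RPKM is a share of the mapped reads, a few abundant transcripts lower all others. Without read counts a value has no counting error here, and all errors given are between libraries. 0 value columns were left without a sample.

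Groups and replicate numbers came from the sample titles. Il33+ and Il33- WAT-MSC were compared with limma 3.58.1 in R 4.3.3 (linear model, empirical Bayes with a trend) on log2 RPKM values with 1 added, over the 8448 genes that reached 1 RPKM in at least 3 of the 6 libraries, with Benjamini-Hochberg adjustment over all of them and a threshold of 0.05. A test of a single gene by exact permutation cannot go below 0.1 with 3 libraries against 3, and none is given. P-values measure the spread between the libraries. Fits were tested on simulated data. Tables and plots were made with Python 3.11.15, numpy 2.4.6, pandas 2.3.3 and matplotlib 3.10.9, and promoter windows were taken from RefSeq.

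The comparison, the gene lists and the alternatives were chosen with earlier results of these data known, and list members are not independent of each other. Several genes stand in more than 1 list. Genes were named by a rule. It takes the genes of the gate, the members of each list past the threshold (the 5 with the largest change in each direction), the 4 most abundant members of each list, the 15 largest calls in each direction without overlap, and the defining markers of other cell types. Dpp4, Lamb1, Lamb2, Pparg and Axin2 were named outside it, after their values were seen. Some genes that the rule takes are counted in their lists but not reported here. Alternatives left each library out in turn, kept the most abundant transcript of a gene, added 0.1 in place of 1, dropped the filter or asked for 1 RPKM in all 6 libraries, scaled by quantiles or by median ratios, fitted all 15 libraries together, kept the first lane alone, and added the lane or the replicate number as a term.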

Additional observations from a re-analysis of the deposited data

How the results depend on the processing

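The 78 genes higher and 55 lower in Il33+ cells depended on the setting. No named gene past the threshold turned its direction in any of 16 alternatives. For genes without overlap this was fixed in advance where a library was left out or the first lane was kept alone. It was also fixed with a lane or replicate term, since both were balanced over the groups. With the first lane only, 37 were higher and 19 lower, and with no filter on low values 31 and 14. Quantile normalization gave 87 lower. With a library left out the counts ranged from 38 to 55 higher and from 12 to 68 lower, the 68 without Il33- replicate 1, where the median of all genes moved to -0.13. Of 67 named genes past the threshold, 24 passed in all alternatives, and 37 were lost with no filter. Same-numbered libraries deviated together only weakly (r = 0.04, 0.06 and 0.11 across genes), but each r was the highest for its library. The labels do not say whether the numbers mark a pairing, and the main fit took none. A replicate block gave 143 higher and 89 lower genes, lost no named call and added 15.

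Of 463 list medians under an alternative, 453 stayed within the spread between libraries (SD of the list's median level). That SD was 0.199 beside a median of 1.436 for interstitial progenitors. It was 0.596 beside -0.519 for basement membrane and 0.819 beside -0.267 for antigen presentation. Where the SD exceeded the median, a change of sign could still count as within the spread, as for antigen presentation. The mesothelial median of 1.11 became 2.32 with a pseudocount of 0.1 and -0.35 with a filter of 1 RPKM in all 6 libraries. That filter keeps none of the 12 mesothelial members below 0.05 RPKM in Il33- replicate 1. The retinoid median of 0.23 became 0.52 with the most abundant transcript. The elastic fibre median of 0.01 (0.20 in the first lane) ranged from -0.19 to 0.26 with a library left out, that of adipogenic transcription factors from -0.15 to 0.12, that of committed preadipocytes from -1.02 to -0.40 and that of complement from 0.54 to 0.86. The causes were not tested. Read counts were not used here, so the depth behind low values is unknown.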

Other observations

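The genes of this part, other than Fgf1, were chosen after their values were seen. Among 8 tested ligands of the fibroblast growth factor family, taken by symbol, 3 were higher in Il33+ cells and 1 was lower, beside 0.923 and 0.651% of all genes tested. Fgf1 measured 34.7, 61.0 and 61.3 RPKM in the Il33+ libraries and 4.33, 10.5 and 6.02 RPKM in the Il33- libraries (log2 fold change 2.77 ± 0.33 (SE), adjusted p = 0.00305) and passed with any single library left out. Fgf18 measured 47.8, 44.5 and 59.7 against 13.6, 18.5 and 21.8 RPKM (1.46 ± 0.25, adjusted p = 0.0148) and Fgf23, the phosphate-regulating hormone, 6.00, 5.14 and 8.12 against 1.26, 1.54 and 1.75 RPKM (1.54 ± 0.32, adjusted p = 0.039). Fgf10, a ligand of epithelial and adipose development, ran the other way at 0.46, 1.56 and 0.55 against 4.52, 4.58 and 5.77 RPKM (-1.72 ± 0.36, adjusted p = 0.0389). All 4 had groups without overlap, and no receptor among the 3 tested passed, with Fgfr1 at 35.2, 22.2 and 30.8 against 15.1, 27.4 and 31.3 RPKM (adjusted p = 0.791). The call was lost for Fgf18 without Il33+ replicates 1 or 3 or Il33- replicate 2, Fgf23 with any single library left out and Fgf10 without Il33+ replicates 1 or 3 or Il33- replicates 1, 2 or 3.

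Lepr, the leptin receptor, measured 4.75, 6.47 and 6.40 against 0.12, 1.42 and 1.05 RPKM (1.95 ± 0.38, adjusted p = 0.0309). Ntrk2, the receptor of brain-derived neurotrophic factor, measured 38.7, 16.4 and 36.4 against 8.86, 8.51 and 8.13 RPKM (1.64 ± 0.32, adjusted p = 0.0318), with Il33+ replicate 2 the lowest of its group. Gfra2, a co-receptor of neurturin, measured 6.14, 6.61 and 8.11 against 1.50, 1.75 and 1.77 RPKM (1.57 ± 0.30, adjusted p = 0.0292), whereas Ret, the signalling partner of that co-receptor, was lower in Il33+ cells as given above. Sox9, a transcription factor of cartilage and progenitor cells, was lower at 6.44, 6.40 and 8.72 against 18.02, 33.6 and 35.9 RPKM (-1.83 ± 0.30, adjusted p = 0.0128), and Nox4, an oxidase that makes hydrogen peroxide, was higher at 15.98, 10.4 and 13.9 against 2.38, 2.89 and 2.90 RPKM (1.94 ± 0.29, adjusted p = 0.00732). The call was lost for Lepr without Il33+ replicates 1, 2 or 3 or Il33- replicates 2 or 3, Ntrk2 without Il33+ replicates 1 or 3 or Il33- replicates 1, 2 or 3, Gfra2 without Il33+ replicates 1, 2 or 3 or Il33- replicates 2 or 3, Sox9 without Il33+ replicate 1 or Il33- replicates 2 or 3 and Nox4 without Il33+ replicate 1.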
